A study of Mus musculus with 2 samples.

Results

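The mouse miRs of the miR-297, miR-466, miR-467 and miR-669 families were examined in sperm small RNA. Members were taken by name alone, from every listed mature miR whose name begins with one of these 4 family numbers followed by a letter or a hyphen. This gave 68 of the 1886 listed entries, and both arms of a hairpin were kept where both are listed. For some hairpins, such as miR-669c and miR-466h, only the 3p arm is listed. In 7 of the 68 entries the authors joined 16 mature names and counted their reads once. Sperm came from WT C57BL/6J mice labelled naive, aged 3 months, and 2 libraries of this 1 condition were sequenced, which the paper calls independent biological replicates. Sperm were let out of the epididymis and treated with a hypotonic buffer to remove other cells. The number of animals behind each library is not given in the sources used here, and no contrast between conditions can be tested. Reads assigned to a miR numbered 4049599 (replicate 1) and 5648067 (replicate 2). Levels are given as CPM, the reads of an entry per 1000000 miR reads of its library, and 3 reads correspond to 0.741 CPM in replicate 1 and 0.531 CPM in replicate 2. Intervals are Wilson 95% intervals and cover counting error only, since PCR copies of a molecule cannot be recognised.

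Most hairpins of these families lie in a large intron of Sfmbt2, a gene for a polycomb group protein. Sfmbt2 is imprinted, and its paternal copy is the one expressed in the early embryo and the placenta, where the intronic miRs are also known to be abundant and to be needed for normal growth of the placenta. The cluster is a rodent expansion of tandem hairpins rich in repeats of UG and AC. Copies within it can therefore have identical or near-identical mature sequences, and a short read cannot always be assigned to a single hairpin.

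RefSeq (GRCm38.p6) gave mature sequences for 8 of the members, all of them relatives with a hairpin outside Sfmbt2. They are shown because repeats of UG and AC can be read directly in most of them. No mature sequence was available for a member with a hairpin in the Sfmbt2 intron, so the repeats of those members were not examined. Capitals mark the seed, bases 2 to 8 from the 5′ end.
miR-466i-3p: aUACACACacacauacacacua
miR-466j: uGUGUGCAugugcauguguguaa
miR-466k: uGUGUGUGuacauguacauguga
miR-466q: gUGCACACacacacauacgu
miR-467f: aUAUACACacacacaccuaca
miR-467g: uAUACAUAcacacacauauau
miR-467h: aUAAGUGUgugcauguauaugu
miR-669n: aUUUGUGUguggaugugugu
No seed was shared by any pair of the 8. An uninterrupted alternation of U with G or of A with C, in either phase and over at least 8 bases (for example UGUGUGUG or ACACACAC), was present in 6 of the 8, against 13 of the 1679 mature mouse miRs in the RefSeq table, or 0.774%. These 13 include the 6 members. Among the 8, the longest alternation was 12 bases, in miR-466q and miR-467f. Of the 8, miR-466i-3p was the only one with a read in the sperm libraries, with 5 reads in replicate 1 and 3 in replicate 2. Its mature sequence lies at chr13:17747552-17747573 on the plus strand, in an intron of Cdk13, which is annotated on the opposite strand.

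In GENCODE M21 (GRCm38, the build the labels name), 81 hairpins carry a name of these families. Of these, 71 lie within Sfmbt2 on its own strand, at positions 10466663 to 10518279 of chromosome 2, a span of 51.6 kb. All 71 fall in the same intron, which is intron 10 of transcript Sfmbt2-201 (chr2:10461473-10523944), and none overlaps an exon. The median gap between neighbours was 209 bases. The intron holds 29 hairpins named miR-669, 23 named miR-466, 14 named miR-467 and 5 named miR-297. By name, 58 members match at least 1 hairpin in this intron, 9 match a hairpin elsewhere only, and miR-466a-5p matched none, as the annotation has a hairpin named Mir466 without a letter.

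The families were detected in sperm, at low levels. Of the 68 members, 22 had a read in replicate 1, 19 in replicate 2 and 16 in both, while 43 had no read in either library. A read in at least 1 library was found for 25 of the 68 members, and for 548 of all 1886 entries. The family counts of entries with a read given below use this minimum. The 16 members with a read in both libraries are 23.5% of the 68, against 20.0% of all 1886 entries. With at least 10 reads in each library 6 members remained, 8.82% of the 68, against 12.9% of all entries. Detected members were thus about as frequent as detected miRs of the whole list, but their levels were lower. The median over the 16 was 1.38 CPM (mean of the libraries), against 7.02 CPM over the 378 miRs detected in both libraries. The most abundant member ranked 156th of these 378.

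Summed over all members, replicate 1 held 307 reads, which is 75.8 CPM (67.8 to 84.8). Replicate 2 held 181, which is 32.0 CPM (27.7 to 37.1). The mean was 53.9 ± 30.9 CPM (SD, n = 2 libraries). These reads made up 0.00758% and 0.00320% of the miR reads. They were concentrated on few members. The 10 members with at least 10 reads in both libraries together held 84.0% of the member reads in replicate 1 and 90.6% in replicate 2, and the remaining 15 members with any read had 1 to 9 reads.

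**Figure D1:**
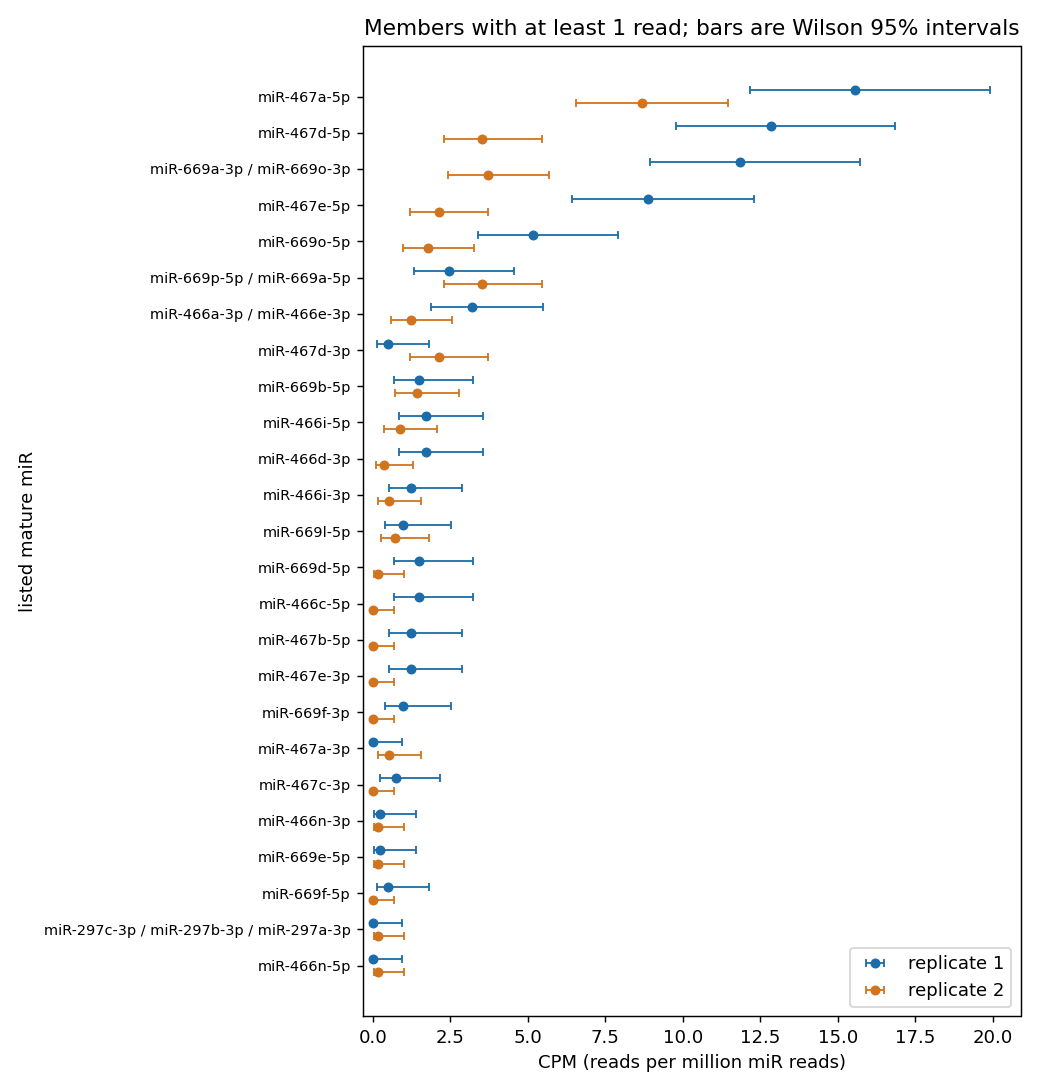
CPM of the 25 members with at least 1 read (linear axis) in replicate 1 (blue) and replicate 2 (orange), with Wilson 95% intervals as bars. The miR-467 and miR-669 members lead, miR-467a-5p is highest in both libraries, and most points of replicate 2 lie to the left of those of replicate 1.

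The miR-467 family was the most abundant, with 41.0 CPM in replicate 1 and 17.0 CPM in replicate 2 summed over 13 entries. Of these, 8 had a read, and most reads lay on the 5p arms of 3 hairpin names. miR-467a-5p had 63 and 49 reads, 15.6 CPM (12.2 to 19.9) and 8.68 CPM (6.56 to 11.5). miR-467d-5p had 52 and 20 reads, 12.8 CPM (9.79 to 16.8) and 3.54 CPM (2.29 to 5.47). miR-467e-5p had 36 and 12 reads, 8.89 CPM (6.42 to 12.3) and 2.12 CPM (1.22 to 3.71). All 3 were lower in replicate 2, and their order by level was the same in both libraries. In replicate 1 the intervals of neighbours in this order overlap, so their levels could not be separated beyond counting error there. In replicate 2 the interval of miR-467a-5p lies above those of the other two, which overlap. The 3p arms were rare. miR-467d-3p had 2 and 12 reads, miR-467e-3p had 5 and 0, miR-467a-3p had 0 and 3, and miR-467c-3p had 3 and 0. miR-467b-5p had 5 reads in replicate 1 and none in replicate 2. No read was counted on the relatives outside the intron, miR-467f, miR-467g and miR-467h.

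The miR-669 family followed, with 25.2 CPM and 11.5 CPM summed over 26 entries, of which 9 had a read. miR-669a is known for restraining muscle differentiation by acting on MyoD. Its 3p arm is counted jointly with miR-669o-3p, and this entry had 48 and 21 reads, 11.9 CPM (8.94 to 15.7) and 3.72 CPM (2.43 to 5.68). The 5p arm of miR-669a is counted jointly with miR-669p-5p, and this entry had 10 and 20 reads, 2.47 CPM (1.34 to 4.55) and 3.54 CPM (2.29 to 5.47). The entry with the 3p arm was therefore lower in replicate 2, while the intervals of the entry with the 5p arm overlap between the libraries. miR-669o-5p, which has an entry to itself, had 21 and 10 reads, 5.19 CPM (3.39 to 7.93) and 1.77 CPM (0.962 to 3.26). miR-669b-5p had 6 and 8 reads, 1.48 CPM and 1.42 CPM, the smallest relative difference between the libraries among members with at least 10 reads. The others had at most 6 reads in a library: miR-669l-5p had 4 and 4, miR-669d-5p 6 and 1, miR-669e-5p 1 and 1, miR-669f-3p 4 and 0, and miR-669f-5p 2 and 0.

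The miR-466 family has as many entries as miR-669, 26, but its summed level was lower, 9.63 CPM (7.05 to 13.2) in replicate 1 and 3.36 CPM (2.15 to 5.25) in replicate 2, and the intervals of the families do not overlap in either library. Of its entries 7 had a read. The joint entry miR-466a-3p and miR-466e-3p had 13 and 7 reads, 3.21 CPM (1.88 to 5.49) and 1.24 CPM (0.600 to 2.56). miR-466i, whose hairpin is the one inside Cdk13 on chromosome 13, had reads on both arms and in both libraries, 7 and 5 on miR-466i-5p and 5 and 3 on miR-466i-3p. miR-466d-3p had 7 and 2 reads. miR-466c-5p had 6 reads in replicate 1 only, miR-466n-3p had 1 read in each library, and miR-466n-5p had 1 read in replicate 2. No read was counted on either arm of miR-466l, known for protecting the Il10 transcript. The miR-297 family was represented by 3 entries, and the joint 3p entry of miR-297a, miR-297b and miR-297c had a single read, in replicate 2.

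The families differed in the arm that was read. Over all members the 3p arm took 28.7% of 307 reads in replicate 1 (23.9% to 34.0%) and 27.6% of 181 reads in replicate 2 (21.6% to 34.6%). For miR-467 the 3p share was 6.02% of 166 reads (3.30% to 10.7%) and 15.6% of 96 reads (9.70% to 24.2%). For miR-466 it was 66.7% of 39 reads (51.0% to 79.4%) and 68.4% of 19 reads (46.0% to 84.6%). The 3p share of miR-467 thus lay below that of miR-466 by more than counting error in each library. For miR-669 it was 51.0% of 102 reads (41.4% to 60.5%) and 32.3% of 65 reads (22.2% to 44.4%), in between, with intervals that overlap between the libraries, and its interval also overlaps that of miR-466 in replicate 1 and that of miR-467 in replicate 2. The 12 entries named without an arm had no read.

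Both arms are listed for 30 hairpin names, 21 of these had a read on an arm, and 8 had reads on both arms over the libraries together. In these counts a joined entry stands under each of its names. miR-467a had 112 reads on 5p and 3 on 3p, and miR-467e had 48 and 5. miR-467d showed the largest change of arm among hairpin names whose arms are not joined and that had at least 5 reads in each library. Its 3p share was 3.70% of 54 reads in replicate 1 (1.02% to 12.5%) and 37.5% of 32 reads in replicate 2 (22.9% to 54.7%), so the intervals do not overlap. This pair was singled out after its values were seen. miR-466i had 3p shares of 41.7% of 12 reads (19.3% to 68.0%) and 37.5% of 8 reads (13.7% to 69.4%). miR-669a and miR-669o, both among the 8, share the 3p entry. Their arm shares therefore cannot be separated, and reads on both arms are not shown for each of them. miR-466n and miR-669f had at most 4 reads on an arm.

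**Figure D2:**
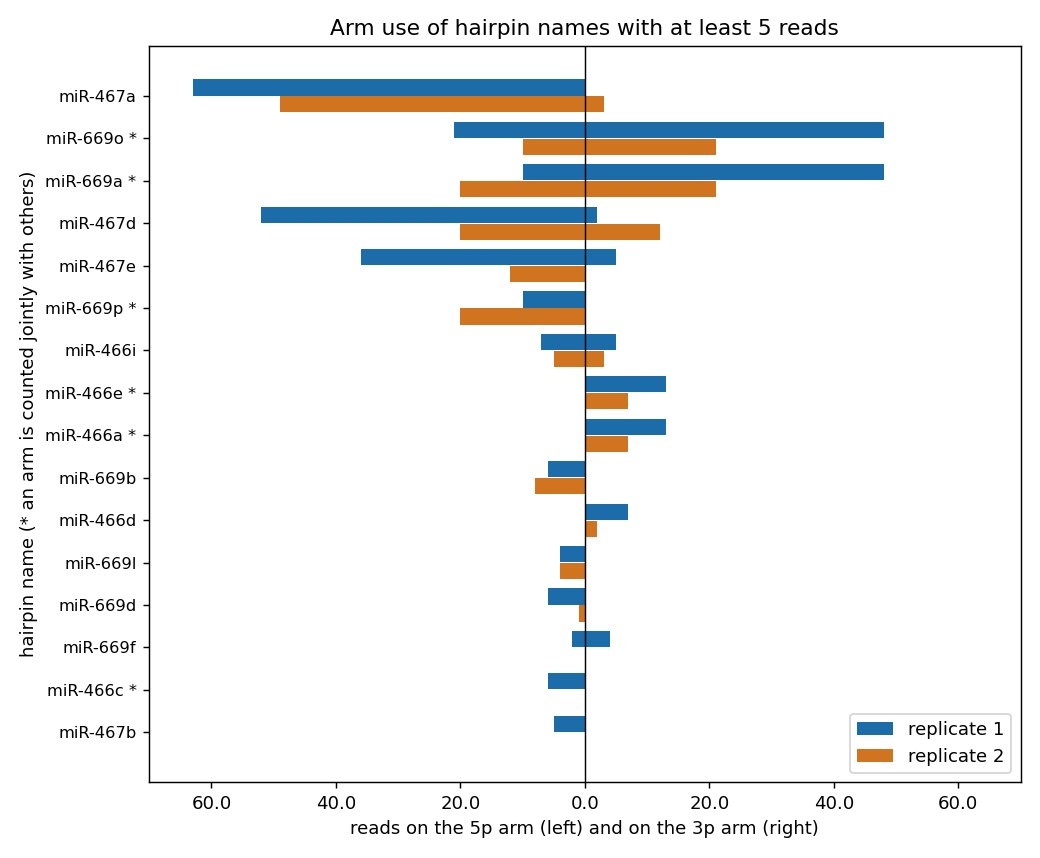
Reads on the 5p arm (bars to the left) and the 3p arm (bars to the right) of the 16 hairpin names with at least 5 reads, in replicate 1 (blue) and replicate 2 (orange). An asterisk marks names with an arm that is counted jointly with other names, so the same reads appear under each of them. Bars of miR-467 names point mainly left, those of miR-466a, miR-466d and miR-466e point right, and miR-467d gains a right bar of 12 reads in replicate 2.

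The number of hairpin copies and the number of reads counted did not follow one another name by name. miR-467a has 10 copies in the intron and had 115 reads over both arms and libraries. miR-669a has 12 copies and had 99 reads, all on joint entries. Those on 3p are shared with miR-669o and those on 5p with miR-669p. By contrast miR-466b, with 8 copies, had no read on any arm, and neither had miR-466f, with 3. miR-467d and miR-467e have 1 copy each and had 86 and 53 reads. Of the 71 hairpins in the intron, 45 belong to a listed entry with a read, but for names with several copies the counts do not say which copy the reads came from. How reads fitting near-identical members of different names were shared is also unknown. A name without a read may therefore have had its reads counted under another name.

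**Figure D3:**
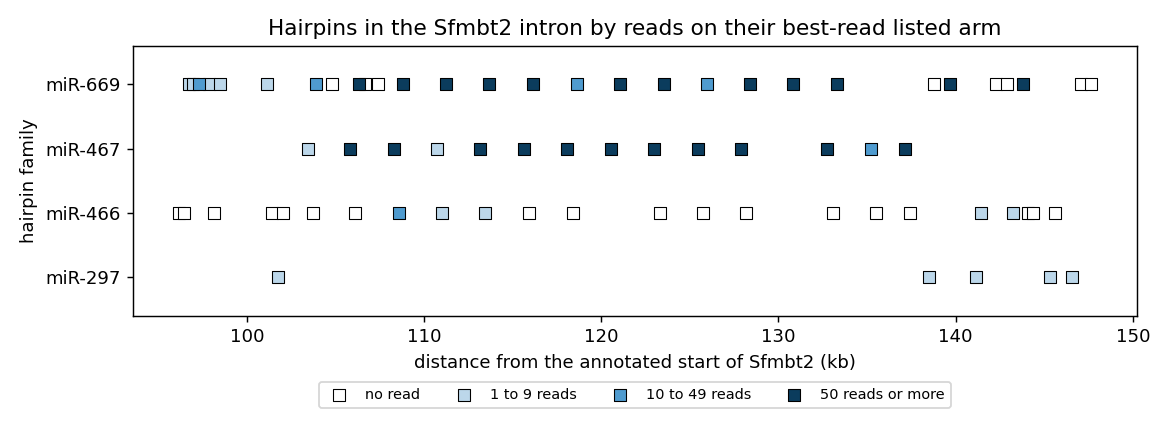
The 71 hairpins in the Sfmbt2 intron by distance from the annotated start of the gene (kb) and by family. The fill gives the reads, over both libraries, on the best-read listed arm of that hairpin's name, and copies with the same name carry the same value. Filled copies of miR-467a and miR-669a run through the middle of the span, while most miR-466 hairpins are empty.

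Of the members, 41 are not joined and match exactly 1 hairpin by name, which gives each of them a position. How reads fitting several near-identical members were shared is unknown, so the hairpin that a read came from is not certain. The 41 members stand for 28 hairpins. When the span was divided into 3 stretches of equal length, 15 of these hairpins lay in the first, none in the middle one, which holds 19 hairpins in all, and 13 in the last. In the first stretch 6 of 15 hairpins had a read on these 41 members, with 25 reads in replicate 1 and 13 in replicate 2. In the last stretch 5 of 13 did, with 124 and 58 reads. Reads on joined entries, or on entries that match several hairpins, are left out. Mir466e, Mir669d, Mir669d-2, Mir669a-3 and Mir297b had no read in this count but match such an entry with at least 1 read. Most of the reads counted were on members placed in the last stretch, and there on miR-467e, miR-467d and miR-669o-5p. Mir467e (ENSMUSG00000076948.2) spans positions 10505721 to 10505807, Mir467d (ENSMUSG00000077021.2) spans 10507630 to 10507714, and Mir669o (ENSMUSG00000077086.1) spans 10514300 to 10514395. Of the hairpins between Mir467d and Mir669o, Mir669c at 10509296 to 10509404, listed by its 3p arm only, had no read. Mir297b at 10511667 to 10511775 had none on its 5p entry. Over both arms and libraries, Mir466d at 10511967 to 10512062 had 9 reads and Mir466n at 10513741 to 10513834 had 3.

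The members were lower in replicate 2. The log2 ratio of their summed CPM, replicate 2 over replicate 1, was -1.24 (-1.52 to -0.97, counting error only), and it was -1.52 for miR-466, -1.27 for miR-467 and -1.13 for miR-669. Of the 10 members with at least 10 reads in both libraries together, 8 were lower in replicate 2, against 65.9% of all miRs that meet the same minimum. A log2 ratio of -1 or lower was found for 5 of the 10, against 22.3% of those miRs. These 5 were miR-467e-5p with -2.06, miR-467d-5p with -1.86, the joint entry of miR-669a-3p with -1.67, miR-669o-5p with -1.55 and the joint entry of miR-466a-3p with -1.37. The median log2 ratio was -1.17 over the 10 members and -0.29 over all miRs with that minimum. The members higher in replicate 2 were miR-467d-3p, with 2.10, and the joint entry of miR-669p-5p, with 0.52. The counting interval of the ratio includes 0 for 5 of the 10 members, which are these 2 and, among the lower ones, the joint entry of miR-466a-3p, miR-466i-5p and miR-669b-5p. It lies below 0 for the other 5, which are miR-467a-5p, miR-467d-5p, miR-467e-5p, miR-669o-5p and the joint entry of miR-669a-3p. The share of all miRs with such an interval was not counted, so these 5 are not set against a background. After scaling by TMM, which shifts every log2 ratio by 0.33, 7 of the 10 were lower and miR-669b-5p changed side, from -0.06 to 0.27. The upper bound of miR-467a-5p, -0.28 before TMM, is nearer to 0 than this shift, so its interval includes 0 after TMM. With 2 libraries of 1 condition, this is a difference between the libraries and not an effect of a treatment.

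**Figure D4:**
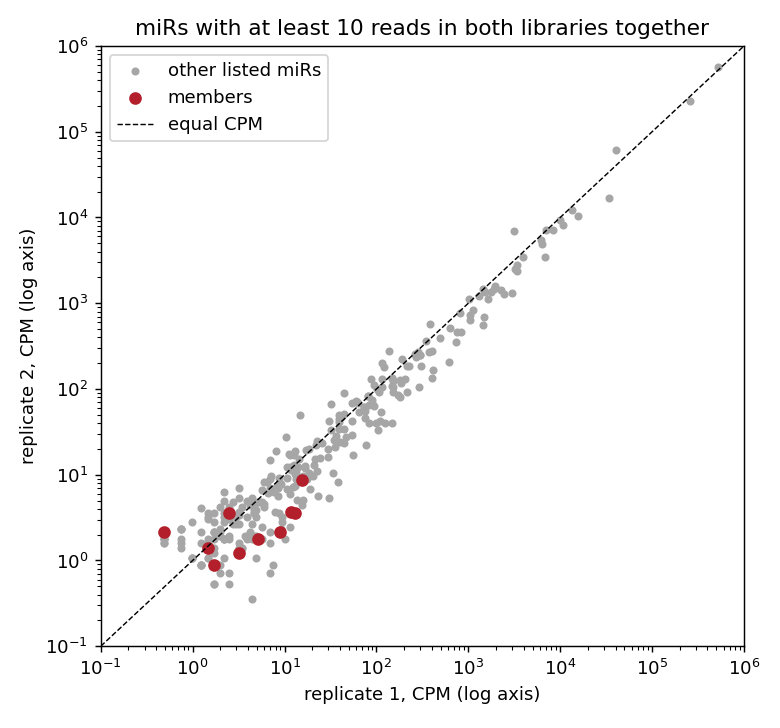
CPM in replicate 2 against CPM in replicate 1 (both axes logarithmic) for the 318 miRs with at least 10 reads in both libraries together and a read in each, with members in red, other miRs in grey and a dashed line at equal CPM. Of the 10 members, 8 lie below the line, and all of them are in the lower left part of the plot, under 20 CPM.

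Germ cell miRs differed between the libraries in the same direction. A list of 19 entries (miR-34b, miR-34c, miR-449a and X-linked testis miRs) had 12 members with a read and summed to 3941 CPM in replicate 1 and 1660 CPM in replicate 2, a log2 ratio of -1.25. Of its 11 members with at least 10 reads together, 11 were lower in replicate 2. Within it miR-34c-5p, a miR of late spermatogenesis, had 12078 and 7420 reads. No read was counted on 7 of the 19 entries, miR-741-3p, miR-880-5p and miR-881-5p among them. Of miR-741, miR-880 and miR-881 only the arm named here is listed, so nothing is known of the other arm. Markers of other cells did not move alike. The list for smooth muscle and stroma, led by miR-143-3p, went from 41332 to 62579 CPM with 8 of 10 entries read, and the blood list from 3287 to 7183 CPM with 9 of 12 read. The epithelial list went from 10812 to 8859 CPM with 13 of 14 read, a log2 ratio of -0.29, which is the median over all miRs with at least 10 reads and turns to 0.04 after TMM scaling. Of entries with at least 10 reads together, 0 of 8 for smooth muscle and stroma, 1 of 8 for blood and 9 of 11 for epithelium were lower in replicate 2. The entries of a list did not all move alike: miR-205-5p rose from 138 to 274 CPM, and miR-223-3p fell from 15.8 to 9.74 CPM. Fewer germ cells and less miR per cell cannot be told apart in such samples, and the part of these markers in the difference of the members was not tested.

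A pair of other miR groups was set beside the families for scale. The imprinted Dlk1-Dio3 miRs, which are expressed from the maternal chromosome, had a read in both libraries for 24 of 101 entries, or 23.8%, and summed to 723 and 580 CPM, with a log2 ratio of -0.32 that turns to 0.01 after TMM scaling. Most of this was miR-127-3p, with 498 and 391 CPM. The X-linked miR-506 family of testis had a read in both libraries for 13 of 28 entries, or 46.4%, and summed to 1831 and 680 CPM, with a log2 ratio of -1.43. It was led by miR-470-5p, with 1461 and 550 CPM, and some of its members are also in the germ cell list. The share of Sfmbt2-related members read in both libraries, 23.5%, was near that of the Dlk1-Dio3 miRs, their summed level was below that of both groups, and their ratio between the libraries was nearer to that of the miR-506 family. These are descriptions of the lists, and no test was made between them.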

How the data were processed

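Small RNA of 2 sperm libraries was sequenced. The authors trimmed low-quality ends, removed adapters with cutadapt 1.8.1 and mapped with Bowtie 1.1.2, at first without mismatches to a reference made of miR and piRNA sequences. The submitters' processing notes also name HTSeq and the builds mm10 and GRCm38, and the miR release is not given in the sources used here. The labels name an Illumina RNA kit where the paper names a TruSeq kit for small RNA, and the deposited tables carry the string POSTTREAT, which no source explains.

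The deposited values are raw read counts per mature miR. Of the 5 summary entries per table only the reads assigned to no miR were above 0 (2496304 and 2017799), and all 5 were left out of totals. The entries for ambiguous and multiply aligned reads stand at 0, so how reads fitting several near-identical members were shared is unknown, and counts within the families are uncertain.

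CPM, arm shares and Wilson intervals were obtained in Python (3.11.15) using pandas (2.3.3), scipy (1.17.1) and numpy (2.4.6). Plots used matplotlib (3.10.9). The interval of a log2 ratio is the exact binomial interval of the reads of replicate 2 among both. TMM factors came from edgeR 4.0.16 and size factors from DESeq2 1.42.0 (R 4.3.3), on miRs with at least 10 reads in both libraries together. Ratios and intervals were tested on simulated counts. No test between conditions was possible. Hairpins were matched by name to GENCODE M21, leaving out a copy that has its own entry for an arm, and 79 of 81 matched. The joined entry of miR-466m-5p and miR-669m-5p was counted under miR-466.

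Members, marker lists and comparison lists were chosen with earlier results of these data known. Named were members with at least 10 reads in both libraries together and hairpins read on both arms, and members with fewer reads are given by their reads for completeness. Alternatives were other read minimums, scalings, denominators, subsets of members and each library alone.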

Additional observations from a re-analysis of the deposited data

How the results depend on the processing

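The number of members with a read in both libraries, 16, was 9 with at least 5 reads in each library, 6 with at least 10, and 25 with a read in at least 1 library. With 3 reads in each library it was 11, and with each library alone 19 or 22. Thinning replicate 2 to the depth of replicate 1, chosen after seeing the data, moved it by less than 1.5 times. The summed abundance of 53.9 CPM stayed within the SD of the replicates under every alternative tried, from 32.0 CPM in replicate 2 alone to 75.8 CPM in replicate 1 alone. With 2 libraries such values always lie within 1 SD, so no stability is read from them. Relative to all reads listed, those of no miR included, it was 35.3 CPM. The mean 3p share of 28.1% was 12.9% as a median over hairpin names with at least 5 reads and 37.0% without miR-467a-5p. The log2 ratio of the summed reads, -1.24, was -0.91 with TMM and -0.96 with DESeq2 scaling, and it stayed negative under all 6 alternatives. Without the 5 miR-467 members with the most reads, chosen after seeing the data, it was -1.24. The scalings shift every miR alike. Depth limits the rarer members: an entry with 0 reads in a library may still have been present. The upper Wilson bound of such an entry is 0.949 CPM in replicate 1 and 0.680 CPM in replicate 2.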

Other observations

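Runs of alternating U and G or A and C of at least 8 bases were also found in mature miRs outside these families. Among the 1679 mature names with a RefSeq sequence, 7 such miRs were not members. miR-672-5p had 190 reads in replicate 1 and 156 in replicate 2, more than the most abundant member, miR-467a-5p. miR-574-5p, whose run of 13 bases is longer than any in the 8 members with a sequence, had 19 and 25 reads, and miR-32-3p had 3 and 1. The other 4, miR-1187, miR-3082-5p, miR-3097-5p and miR-6348, had no read in either library. Over the 7, then, 3 were read in both libraries and 4 in neither, so that a repeat of this kind occurred both in miRs with many reads and in miRs with none.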
